A study of Mus musculus with 11 samples.

Results

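The genes described here encode 48 enzymes that modify tRNA or rRNA, together with their partner subunits. They were taken from a fixed list of symbols (tRNA and rRNA methyltransferases, pseudouridine synthases, deaminases and related enzymes) by a rule that names no measured value. The list was nevertheless chosen with earlier results of these data known, so its shares are not those of an independently drawn list. All 48 are among the 13121 genes of the soleus table, and 47 are among the 12366 genes of the quadriceps table, where Adat3 has no row. RNA was sequenced from soleus, a calf muscle of posture with many slow fibres, and quadriceps, a mostly fast thigh muscle, of mice labelled 2.5 months old. The Myc groups are 4 soleus and 2 quadriceps libraries from mice in which doxycycline, given overnight, switched on Myc through a tetracycline system, with muscles taken 12 hours after the drug was removed. The control groups are 3 soleus and 2 quadriceps libraries from age-matched mice. The labels do not give the promoter that drove the Myc system, the strain, the genotype of the controls or whether the controls received doxycycline, and they do not say whether libraries came from separate animals, so p-values measure only the spread between these libraries.

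After transcription, a tRNA is methylated, isomerised, reduced, thiolated or deaminated at many bases. Marks in the body of the molecule mainly hold its fold together, and marks at the wobble position and next to the anticodon tune how codons are read. rRNA carries related marks, and several of the enzymes act only in mitochondria, on the tRNAs and rRNAs made there. Myc is a transcription factor that binds DNA with Max at the sequence CACGTG, the canonical E-box, and is known for raising genes of ribosome and protein synthesis.

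Estimated depth was 11.1 to 14.9 M reads per library in soleus and 14.2 to 18.4 M in quadriceps (M, mega). Values are normalised read counts, and the tables of the muscles were normalised separately, so levels are not compared between muscles. The Myc row itself, the check of the labels, held 26.3, 31.0, 28.8 and 27.7 in soleus Myc libraries and 30.04, 54.3 and 28.2 in soleus control libraries. In quadriceps it held 86.4 and 33.6 in Myc libraries and 113.7 and 55.7 in control libraries. The groups overlapped in both muscles (limma adjusted p = 0.690 in soleus and 0.934 in quadriceps), so the row did not identify the Myc libraries and every direction below rests on the labels. Slow-fibre marker genes (11 of 11 measured) summed to 522000 to 661000 in soleus Myc and 554000 to 641000 in soleus control libraries. In quadriceps they summed to 2250 and 4740 in Myc libraries and to 27100 and 197000 in control libraries. Tendon markers (10 of 10 measured in soleus) summed to 2300 and 3660 in soleus Myc replicates 3 and 4, to 7860 and 6920 in soleus Myc replicates 1 and 2 and to 7750 to 9620 in soleus controls, and fibroblast markers (10 of 10) were lowest in the same 2 libraries, with 6820 and 10100 in Myc replicates 3 and 4, 18600 and 19100 in Myc replicates 1 and 2 and 15800 to 22100 in controls. None of these markers was at 0 in a soleus library. In quadriceps, tendon markers (9 of 10 measured) summed to 276 and 3700 in Myc replicates 1 and 2 and to 4050 and 1480 in controls. Fibroblast markers there summed to 10800 and 20700 in Myc replicates 1 and 2 and to 14700 and 18800 in controls. Schwann cell markers (8 of 8) summed to 2300 to 5520 in soleus Myc and 1990 to 2920 in soleus control libraries. Of 87 marker genes of 10 cell types tested in soleus, 0 were called higher and 1, the fast myosin light chain Mylpf, was called lower. Over all genes tested, 7.06% were called higher and 2.23% lower. At an unadjusted limma p under 0.05, 3 markers were higher and 12 lower, against 12.9% and 8.77% of all genes. All 12 fast-fibre markers had negative log2 changes in soleus, and they summed to 451000, 601000, 713000 and 492000 in Myc and 685000 to 722000 in control libraries. All 5 erythroid markers were also negative, with sums of 3280 to 7520 in Myc and 7440 to 7700 in control libraries. So were all 10 fibroblast, all 9 macrophage and all 8 adipocyte markers tested in soleus. Negative changes were also held by 8 of 10 tendon, 7 of 8 endothelial, 8 of 11 slow-fibre and 4 of 6 satellite cell markers. All 8 Schwann cell markers were positive. The part that these markers have in the results was not tested; soleus counts are also given without Myc replicates 3 and 4. In whole muscle, fewer cells of a type and less RNA per cell cannot be told apart.

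In soleus, 20 of the 48 enzyme genes rose with Myc and 0 fell (limma, Benjamini-Hochberg adjusted p under 0.05 over all 12745 genes tested). The same call was made for 9.29% of all genes, 7.06% upward and 2.23% downward. The members that rose most were Mettl1, which makes N7-methylguanosine in tRNA, by 2.52 on the log2 scale, Trmt61a, the catalytic subunit for N1-methyladenosine, by 2.28, and Pus7l, a pseudouridine synthase paralogue, by 2.21. Log2 changes are of log2(value + 1), Myc minus control, which understates the change of low genes. A call with a log2 change of at least 1 was reached by 11 members, against 2.06% of all genes tested. At an unadjusted p under 0.05, 27 members were higher and 0 lower, against 12.9% and 8.77% of all genes (21.7% in either direction). The 48 log2 changes ran from -0.63 to 2.52 with a median of 0.49, beside a median of -0.035 over all genes tested. Of the 48, 42 were positive, against 45.6% of all genes. In 26 members every Myc library lay above every control library and in 0 members below, against 12.7% and 8.35% of all genes. Leaving out 1 library at a time gave 15 to 18 members called, and leaving out both soleus Myc replicates 3 and 4 gave 11.

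**Figure D1:**
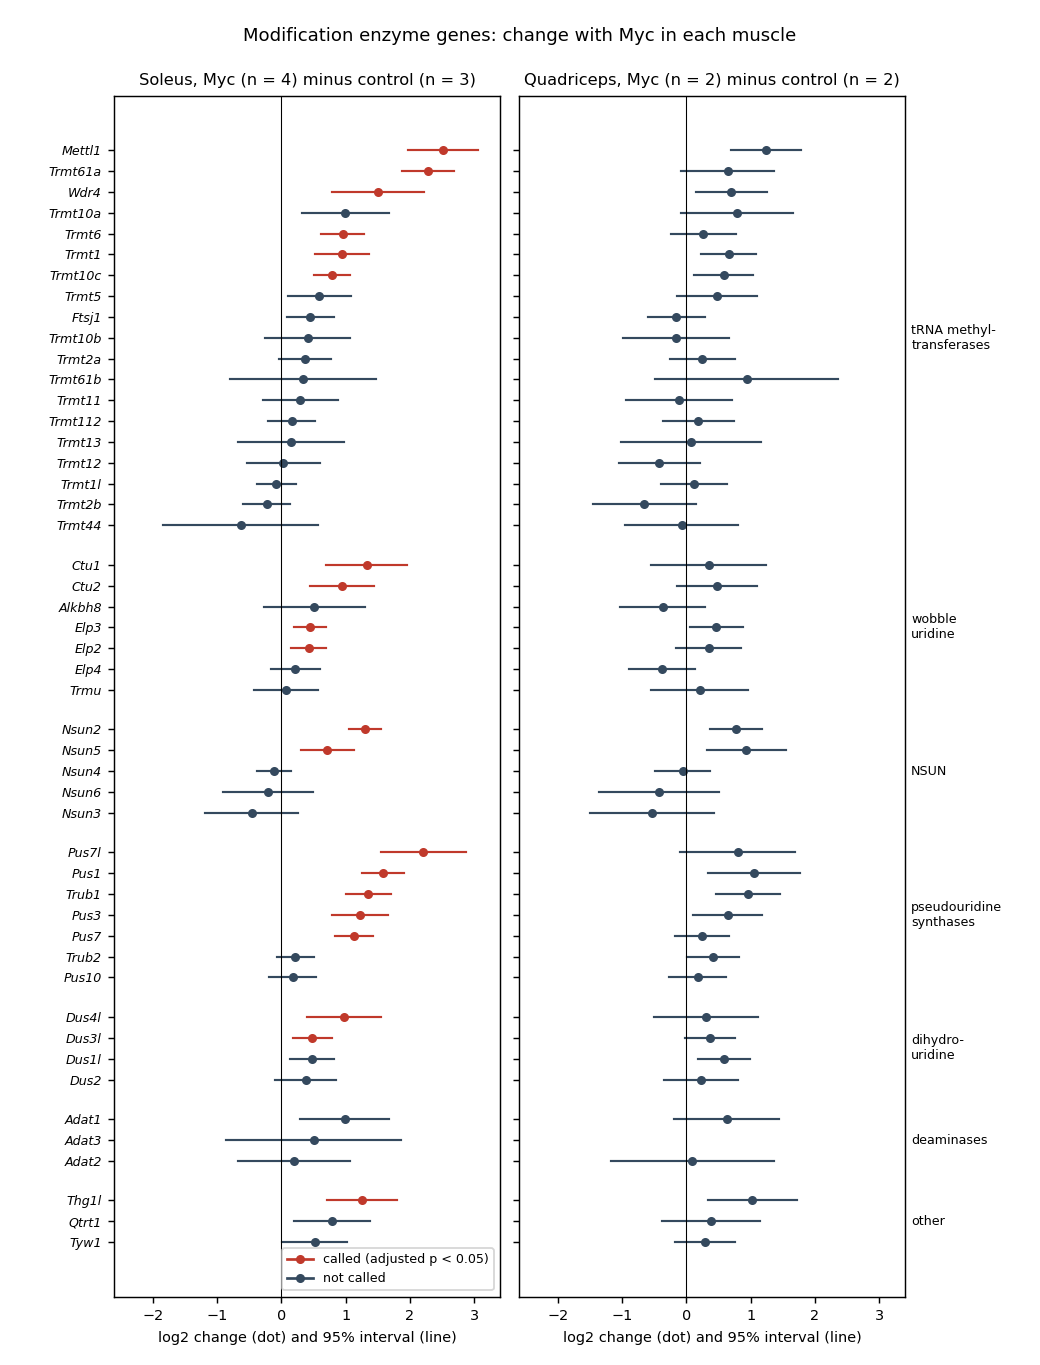
Log2 change with Myc (dot) and its 95% interval (line) for each enzyme gene, grouped by role, in soleus on the left and quadriceps on the right; red marks genes called at an adjusted p under 0.05. In soleus 20 of 48 genes are red and all of these lie to the right of 0; in quadriceps no gene is red and 36 of 47 dots lie to the right of 0.

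The canonical E-box was searched in the promoters of the members, because it is the sequence that Myc is known to bind. Windows run from 250 bases before to 50 after the RefSeq start site on GRCm38.p6, and 41 of the 48 members have one (none for Trmt6, Adat1, Elp2, Nsun5, Trmt1, Trmt12 and Elp3). CACGTG reads the same on both strands. It occurs in 8 of these 41 members (19.5%), in 11.9% of the 10412 genes of the soleus table that have a window and in 8.09% of all 27025 genes with a window. Among members called higher in soleus it occurs in 5 of 15 (33.3%), and among those not called in 3 of 26 (11.5%). These shares are a description and carry no test. The share among all genes called higher in soleus was not computed, so the members cannot be compared with other risers. The 9 sites are printed in 30 bases each, 5′ to 3′ on the strand of the gene, with the hexamer in capitals; the first 5 belong to members called higher in soleus and the last 4 to members not called.
Mettl1 (chr10:127041950-127041979, plus strand): agctcggctctcCACGTGgactgcgtggca
Trmt61a (chr12:111678118-111678147, plus strand): ccgccgtggagcCACGTGtggagccgggag
Pus1 (chr5:110780576-110780605, minus strand): tccgccttcgtgCACGTGgtcagcttcggg
Pus7 (chr5:23783666-23783695, minus strand): ggcgcagcgccgCACGTGtgcgagcccggc
Pus3 (chr9:35558416-35558445, plus strand): tctcgcccctggCACGTGctgccacccccg
Trmt10a (chr3:138143772-138143801, plus strand): cccctcgccactCACGTGccgtcttccaga
Trmt61b (chr17:71598753-71598782, minus strand): gtggctacgtcaCACGTGtgcgacagcacc
Qtrt1, upstream site (chr9:21411777-21411806, plus strand): tagctctcagatCACGTGattcggggcacc
Qtrt1, site at the start (chr9:21411822-21411851, plus strand): gtggtctcaggcCACGTGgttccgggactg

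Positions are counted from 1 at the first base after the start site, with -1 the base before it. The hexamer begins at position 31 in Mettl1, 26 in Trmt61a, 23 in Pus1 and 29 in Pus7, and at -132 in Pus3. In the members not called it begins at -15 in Trmt10a, at -9 in Trmt61b and at -48 and -3 in Qtrt1.

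**Figure D2:**
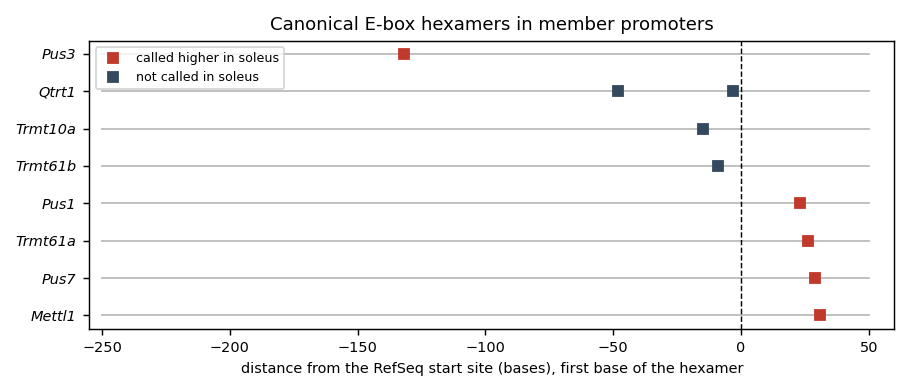
Position of each CACGTG hexamer (square, first base) in the promoter window of the 8 members that hold one, in bases from the RefSeq start site (dashed line); red squares are members called higher in soleus and dark squares members not called. The squares of Pus1, Trmt61a, Pus7 and Mettl1 stand together at positions 23 to 31, after the start site.

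Of the 19 tRNA methyltransferase genes and partners, 6 rose in soleus and 0 fell, with a median log2 change of 0.41. They include both subunits of 2 enzymes. Mettl1 had 234, 278, 264 and 332 normalised reads in soleus Myc libraries, against 59.2, 30.1 and 58.7 in soleus control libraries. The lowest Myc library lay far above the highest control library (log2 change 2.52, SE 0.26, limma adjusted p = 5.95e-06). Its partner Wdr4, a scaffold without which Mettl1 is inactive, had 273, 299, 225 and 176 in Myc libraries and 111, 119 and 43.4 in controls, again without overlap (1.504, SE 0.33, limma adjusted p = 0.0132). Control replicate 3 held the lowest Wdr4 value.

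Trmt61a, which carries the active site for N1-methyladenosine in the T-loop of cytosolic tRNAs, had 331, 311, 356 and 432 in soleus Myc libraries and 60.1, 75.7 and 82.2 in controls (log2 change 2.28, SE 0.19, limma adjusted p = 1.12e-06). Every Myc library stood clear of every control. The partner subunit Trmt6 averaged 310.3 ± 12.9 in Myc (SD, n = 4) and 160.5 ± 18.7 in control libraries (SD, n = 3), a log2 change of 0.95 (SE 0.16, limma adjusted p = 0.000804).

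Trmt1, which places dimethylguanosine in tRNA, rose by 0.94 (SE 0.19, limma adjusted p = 0.0101), a call that was lost without control replicate 1 (0.88, limma adjusted p = 0.0537). Trmt10c, a subunit of the mitochondrial RNase P that also methylates tRNA, rose by 0.79 (SE 0.13, limma adjusted p = 0.00086). The other 13 methyltransferase genes and partners were not called. Trmt10a, which methylates guanosine in the core of tRNA, had a log2 change of 0.99 (95% interval 0.32 to 1.67), and Trmt5, which methylates the guanosine next to the anticodon, had 0.59 (0.094 to 1.08); both lay above controls without overlap. Trmt5 was called without control replicate 3 (0.83, limma adjusted p = 0.0422). Trmt2b, the mitochondrial methyluridine enzyme, Trmt44, whose yeast counterpart methylates serine tRNA, and Trmt1l, the paralogue of Trmt1, had -0.23, -0.63 and -0.079, each with an interval that spans 0. Trmt2a, Trmt10b, Trmt11, Trmt12, Trmt13, Trmt61b and Trmt112, the shared activator of several methyltransferases, lay between 0.028 and 0.41.

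Of the 7 pseudouridine synthase genes, which turn uridine into its isomer within the RNA chain, 5 rose and 0 fell, and their median log2 change of 1.22 was the highest of the 7 role groups. Pus1, whose human counterpart is mutated in a mitochondrial myopathy with anaemia, had 495, 403, 567 and 489 in soleus Myc libraries and 168, 171 and 147 in controls (log2 change 1.58, SE 0.15, limma adjusted p = 4.25e-06). Trub1, which modifies the T-loop of tRNA, had 367, 376, 343 and 390 in Myc libraries and 155, 118 and 162 in controls (1.35, SE 0.16, limma adjusted p = 3.78e-05). For both genes the gap between the groups was wider than the range of the controls. Pus1 shares 23.8% of its exon bases with Gm26515 on the opposite strand, which was not analysed here. Pus7l had 198, 164, 123 and 156 in Myc libraries and 40.6, 45.6 and 19.96 in controls (2.21, SE 0.31, limma adjusted p = 0.000159). Its paralogue Pus7, which acts on tRNA and on mRNA, had 515, 527, 685 and 690 in Myc libraries against 264, 288 and 269 in controls (1.13, SE 0.14, limma adjusted p = 5.77e-05). The Myc values of Pus7 fell into a lower pair, replicates 1 and 2, and a higher pair, replicates 3 and 4, both above all controls.

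Pus3, which acts in the anticodon arm, had 296, 253, 239.5 and 285 in soleus Myc libraries and 144, 83.4 and 123 in controls (log2 change 1.22, SE 0.20, limma adjusted p = 0.000834). Most of the exon sequence of Pus3 (88.1%) is shared with Hyls1 on the opposite strand. The strand setting of the libraries and of the counting is not given in the sources used here, so reads of the 2 genes cannot be told apart. Hyls1 itself averaged 17.9 in Myc and 12.8 in control libraries and was not called (0.27, limma adjusted p = 0.876). The 2 synthases not called were Pus10, at 0.17, and Trub2, which works in mitochondria, at 0.22.

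**Figure D3:**
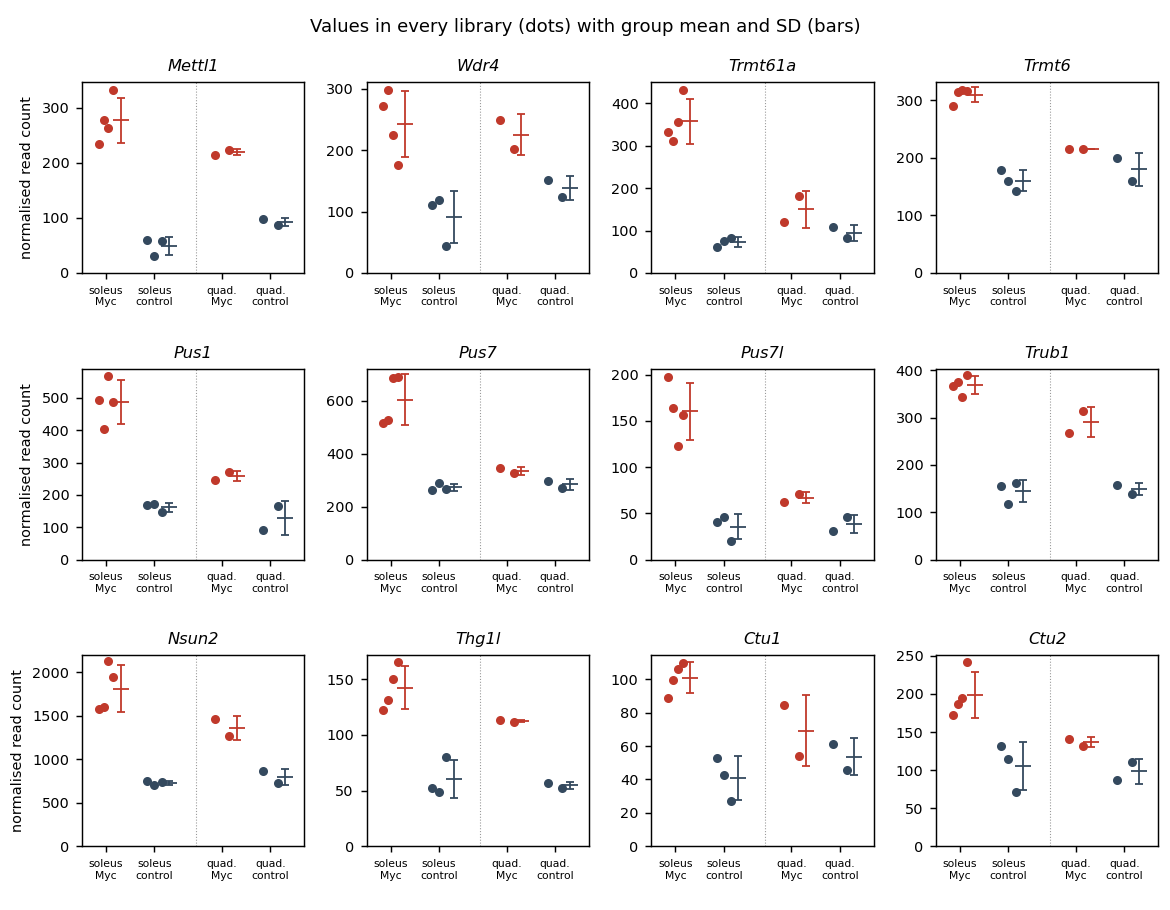
Normalised read counts in every library (dots) with the group mean and SD (bars) for 12 members called higher in soleus, soleus left of the dotted line and quadriceps right of it, Myc in red and control in dark; the muscles were normalised separately. In soleus all Myc dots lie above all control dots for each of these genes, while in quadriceps the groups overlap for Ctu1.

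Of the 7 genes for modifying the wobble uridine, 4 rose and 0 fell. Ctu1, the catalytic subunit of the cytosolic tRNA thiolation enzyme, had 88.6, 99.6, 105.9 and 109.8 in soleus Myc libraries and 53.0, 42.7 and 27.0 in controls (log2 change 1.33, SE 0.30, limma adjusted p = 0.00824). Its partner Ctu2 had 173, 187, 195 and 242 in Myc libraries and 131.5, 115 and 71.0 in controls (0.94, SE 0.23, limma adjusted p = 0.0165). Neither gene overlapped between groups. The call of Ctu2 was lost without Myc replicate 4 (0.84, limma adjusted p = 0.0654) and without control replicate 3 (0.68, limma adjusted p = 0.0717), and 47.3% of its exon bases are shared with Piezo1 on the opposite strand, which had a log2 change of 0.093.

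Elongator, the complex that starts the side chain on the same uridine, had smaller log2 changes. Its catalytic subunit Elp3 rose by 0.44 (SE 0.12, limma adjusted p = 0.0225) and Elp2 by 0.42 (SE 0.13, limma adjusted p = 0.0479), and the accessory subunit Elp4 was not called at 0.22. The call of Elp3 was lost without Myc replicate 3, control replicate 1 or control replicate 2 (limma adjusted p 0.0660 to 0.116). The call of Elp2 was lost without any 1 of the 7 soleus libraries (limma adjusted p 0.0550 to 0.178). Alkbh8, which finishes part of these side chains, and Trmu, the mitochondrial tRNA thiolation enzyme, were not called at 0.51 and 0.069.

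Of the 5 NSUN genes, which make 5-methylcytosine, 2 rose and 3 had changes below 0. Nsun2, which methylates many cytosolic tRNAs, had 1582, 1595, 2123 and 1939 in soleus Myc libraries against 753, 703 and 734 in controls (log2 change 1.30, SE 0.12, limma adjusted p = 1.73e-06). The controls lay close together and every Myc library was far above them. Nsun5, which methylates the RNA of the large ribosomal subunit, had 214, 159, 232 and 199 in Myc libraries and 128, 108.0 and 128 in controls (0.72, SE 0.20, limma adjusted p = 0.0310). This call was lost without Myc replicate 1, 3 or 4 or control replicate 1 or 2 (limma adjusted p 0.0625 to 0.131). Nsun5 shares 15.4% of its exon bases with Pom121 on the opposite strand, which rose by 0.64 (limma adjusted p = 0.00822). Nsun3 and Nsun4, which act on mitochondrial tRNA and rRNA, had -0.46 and -0.12, and Nsun6, which methylates the acceptor end of tRNA, had -0.21; none was called.

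Of the 4 dihydrouridine synthase genes, which reduce uridine in the D-loop and elsewhere, 2 rose and 0 fell. Dus4l had 104, 172, 123 and 121 in soleus Myc libraries and 87.5, 50.4 and 61.0 in controls (log2 change 0.97, SE 0.27, limma adjusted p = 0.0310). Dus3l had 499, 523, 518 and 628 in Myc libraries and 413, 315 and 447 in controls (0.48, SE 0.14, limma adjusted p = 0.0466). The groups did not overlap for either gene, but each gap was small. The call of Dus4l was lost without Myc replicate 2, 3 or 4 or control replicate 2 or 3 (limma adjusted p 0.0582 to 0.144), and that of Dus3l without any 1 library other than control replicate 3 (limma adjusted p 0.0570 to 0.246). Dus1l and Dus2 were not called at 0.47 and 0.38.

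None of the 3 tRNA adenosine deaminase genes was called. Adat1, which acts on the adenosine next to the anticodon of alanine tRNA, had 70.1, 65.3, 72.5 and 107.9 in soleus Myc libraries and 38.9, 28.1 and 52.8 in controls, without overlap (log2 change 0.98, 95% interval 0.29 to 1.67, limma adjusted p = 0.0734). Adat3, the partner of Adat2 in making wobble inosine, had 33.1, 8.37, 28.8 and 18.8 in Myc libraries and 6.18, 15.5 and 25.8 in controls. Its groups overlapped throughout (0.50, 95% interval -0.86 to 1.86, limma adjusted p = 0.705). Adat3 lies almost wholly inside a predicted gene on the same strand (92.0% of its exon bases) and shares 8.01% with Scamp4, so its reads are uncertain. Adat2 had a log2 change of 0.19.

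Among the remaining 3 enzymes, Thg1l, which adds the extra guanosine at the start of histidine tRNA, had 123, 131, 149.7 and 165 in soleus Myc libraries and 52.1, 48.5 and 79.8 in controls (log2 change 1.25, SE 0.25, limma adjusted p = 0.00408). Qtrt1, the catalytic subunit that inserts queuine at the wobble position, had 82.7, 108.0, 124 and 77.2 in Myc libraries and 54.8, 46.6 and 66.9 in controls. The Qtrt1 groups did not overlap, but the gene was not called (0.78, 95% interval 0.19 to 1.38, limma adjusted p = 0.0990). Tyw1, an early enzyme of wybutosine synthesis, had 0.51 and was not called.

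A p above the threshold does not show that a gene stayed level. Of the 28 members not called in soleus, 22 had a positive log2 change, 7 had a 95% interval wholly above 0 and 10 had an interval that holds a log2 change of 1. The intervals were wider among members not called (median half-width 0.54) than among those called (0.41), and 4 of the 48 members had under 20 estimated reads in some soleus library. Of all 48, 18 share exon bases with another annotated gene in GENCODE vM21.

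The members that act mainly in mitochondria were grouped after their values had been seen, so the following is a description. Trmt2b, Trmt10c, Trmt61b, Trmu, Nsun3, Nsun4 and Trub2 had a median log2 change of 0.069 in soleus, with 1 of 7 called, and the other 41 members had a median of 0.51 with 19 called. In quadriceps the medians were 0.21 over the same 7 and 0.35 over the other 40 tested. Pus1, which also acts in mitochondria, was counted among the other 41 and rose by 1.58 in soleus. The lists of related genes described below were not split in this way. Of their mitochondrial enzymes, Mettl8, Mrm3, Gtpbp3, Mrm1 and Prorp were called higher in soleus (1.42, 0.85, 0.82, 0.72 and 1.171). Others, such as Mrm2 and Mto1, were not called (0.059 and -0.054). The split thus describes these members only.

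**Figure D4:**
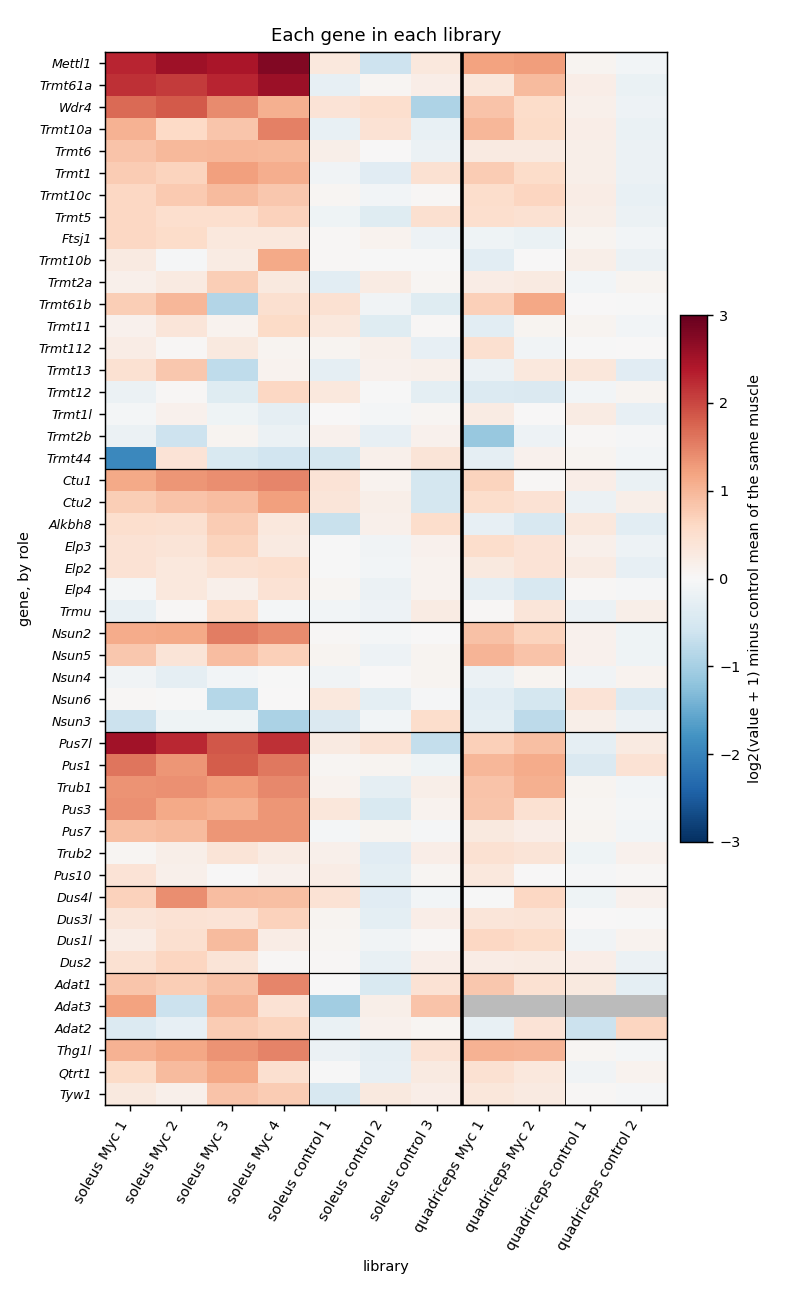
Each enzyme gene (rows, by role) in each library (columns) as log2(value + 1) minus the control mean of the same muscle, red above and blue below, grey where the gene has no row. The median over members is 0.49 to 0.76 in the 4 soleus Myc libraries and 0.34 and 0.38 in the quadriceps Myc libraries. Control columns, which are centred on their own mean, have medians within 0.087 of 0.

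Library by library, the median deviation of the 48 members from the soleus control mean was 0.53, 0.49, 0.76 and 0.64 in Myc replicates 1 to 4, against 0.039, -0.087 and 0.084 in the controls. All 4 Myc libraries were thus above all 3 controls, and replicates 3 and 4, the libraries low in tendon and fibroblast markers, had the higher medians. Control medians near 0 were fixed in advance, because each gene was centred on its control mean. Over all genes tested, the medians in Myc replicates 1 to 4 were -0.0062, -0.00051, -0.012 and -0.0089. Over the 20 called members the medians were 0.98, 1.14, 1.24 and 1.27 in Myc libraries. These 20 were selected by their values in the same libraries, so medians well above 0 were fixed in advance. Without replicates 3 and 4, Trmt6, Trmt10c, Trmt61a, Nsun2, Mettl1, Wdr4, Pus1, Pus3, Pus7, Pus7l and Trub1 were the 11 members still called. These 11 were called in all 18 alternatives tried in soleus, in which the log2 change ran from 2.20 to 2.68 for Mettl1 and from 2.14 to 2.38 for Trmt61a.

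In quadriceps 0 of 47 members were called, against 0.00815% of the 12270 genes tested, which is 1 gene. The limma-voom fit also called 0 members, and 1 fit over all 11 libraries called 2. The members' changes leaned the same way as in soleus: 36 of 47 were positive, against 45.8% of all genes, the median was 0.35 beside -0.031 over all genes, and at an unadjusted limma p under 0.05 there were 13 members higher and 0 lower, against 3.97% and 2.24% of all genes (6.21% in either direction). In 28 members both Myc libraries lay above both controls and in 5 below, against 18.3% and 16.9% of all genes.

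The member with the largest log2 change in quadriceps was again Mettl1, at 1.24 (95% interval 0.69 to 1.79, limma adjusted p = 0.337). It had 215 and 223 in Myc libraries and 97.5 and 87.3 in controls. Pus1 had 247 and 270.4 in Myc libraries and 91.7 and 166 in controls (1.06, 95% interval 0.34 to 1.77, limma adjusted p = 0.552). Thg1l had 113 and 111.5 in Myc libraries against 56.9 and 52.4 in controls (1.03, 95% interval 0.33 to 1.73, limma adjusted p = 0.552). None of these 3 genes overlapped between groups, and none passed the test. Nsun2 had 1460 and 1266 in Myc libraries against 865 and 728 in controls (0.78, limma adjusted p = 0.377), and Trub1 had 267 and 313 in Myc libraries against 158 and 139.6 in controls (0.96, limma adjusted p = 0.377). Neither gene overlapped between groups, and fitting both muscles together gave each a call (limma adjusted p = 0.0391 for Nsun2 and 0.0429 for Trub1). Nsun5 had 172 and 154.5 in Myc libraries and 92.99 and 77.7 in controls, with a log2 change of 0.93.

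Members below their controls without overlap in quadriceps were Trmt2b, Trmt12, Nsun3, Elp4 and Ftsj1. Trmt2b had 151 and 301.0 in Myc libraries and 342 and 329 in controls (log2 change -0.65, 95% interval -1.45 to 0.15, limma adjusted p = 0.856). The value rested on Myc replicate 1, which was at -1.15 from the control mean, against -0.16 for Myc replicate 2. Replicate 1 was also the quadriceps library with the lowest tendon and fibroblast marker sums, whose part here was not tested. With replicate 1 as the only Myc library, the gene was called (limma adjusted p = 0.0387), in a fit whose spread comes from the 2 controls and the moderation across genes and which assumes that the lone library varies like them. Trmt12, which acts in wybutosine synthesis, Nsun3 and Elp4 had -0.42, -0.53 and -0.38, and Ftsj1, a methyltransferase of the anticodon loop, had -0.15.

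All 20 members called in soleus were above control on average in quadriceps, 18 of them without overlap (Ctu1 and Dus4l overlapped), with a median log2 change of 1.174 in soleus and 0.64 in quadriceps. Among the 896 genes called higher in soleus and tested in quadriceps, 97% were above control and 75.7% without overlap there. Their median log2 change was likewise larger in soleus, the muscle used to select them (0.74), than in quadriceps (0.41). Of the 20, 18 had the smaller log2 change in quadriceps, against 94.4% of those 896 genes. Over the 47 members tested in both muscles the log2 changes had a Pearson r of 0.75, given as a description across genes that share their libraries. In 23 members the Myc libraries lay above the controls without overlap in both muscles, against 8.16% of the 11971 genes tested in both.

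**Figure D5:**
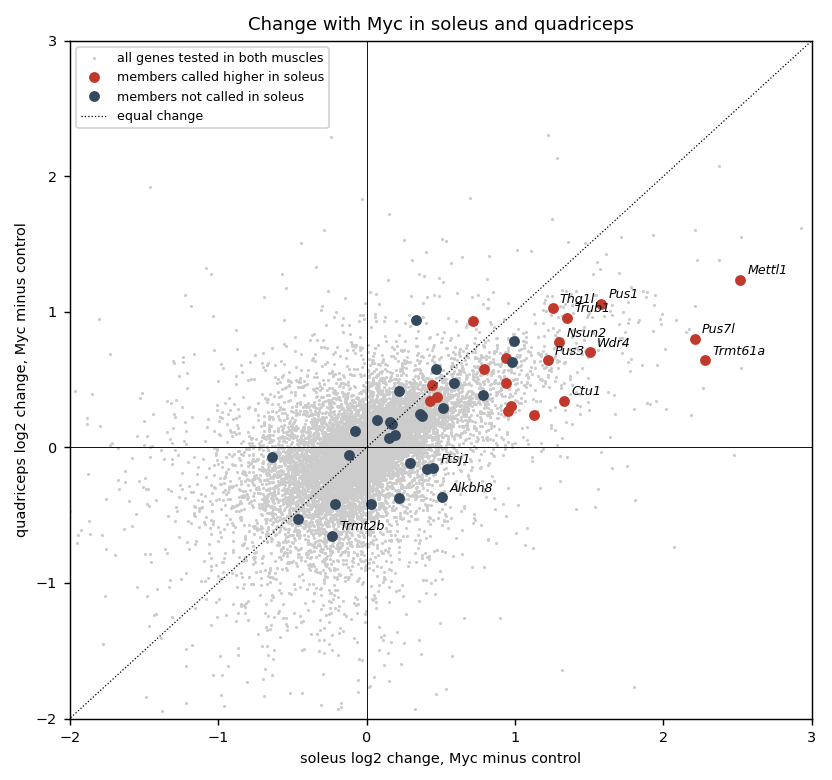
Log2 change with Myc in soleus (x) and quadriceps (y) for all 11971 genes tested in both (grey, 73 of them outside the axes), members called higher in soleus (red) and members not called (dark); the dotted line marks equal change. The red points all lie above 0 on both axes, and 18 of 20 lie below the line of equal change.

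Whether the muscles differed was tested as a contrast, the log2 change in soleus minus that in quadriceps, with both muscles in 1 limma fit. Of 47 members 0 were called, against 0% of 11971 genes, and 0 were called in any alternative. The difference was positive for 36 members, against 54.2% of all genes, with a median of 0.23. At an unadjusted p under 0.05 there were 7 members, all with the larger change in soleus, against 2.59% of all genes in that direction and 0.593% in the other (3.18% in either). Trmt61a had the largest difference, 1.64 on the log2 scale (95% interval 0.90 to 2.38, limma adjusted p = 0.390). Its quadriceps values were 119 and 180.6 in Myc libraries and 107.9 and 81.5 in controls. Pus7 differed by 0.89 (95% interval 0.40 to 1.37, limma adjusted p = 0.650), with 346 and 326 in quadriceps Myc libraries and 298 and 270.1 in controls. For Trmt61a and Pus7 the groups stayed apart in quadriceps, by a narrow margin. Mettl1, Pus7l, Trmt6, Nsun2 and Ftsj1 differed by 1.28, 1.41, 0.69, 0.52 and 0.61 (limma adjusted p = 0.999 for each). Slow-fibre markers were far lower in quadriceps Myc than control libraries and overlapped in soleus, and their part in the difference between muscles was not tested.

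In soleus, some genes of the same pathways outside the 48 also rose and none was called lower. The lists used here were also chosen with earlier results of these data known. Of 59 other tRNA and rRNA modification genes tested, 22 rose and 0 fell, against 7.06% and 2.23% of all genes; the median log2 change was 0.42 and 8 genes were below 0. Ftsj3, a methyltransferase of pre-rRNA, averaged 1561 ± 221 in Myc and 434 ± 4.23 in control libraries (1.84, limma adjusted p = 6.99e-08), and Dkc1, the pseudouridine synthase of box H/ACA particles, 1138 ± 175 and 266 ± 30.6 (2.09, limma adjusted p = 6.99e-08; SD, n = 4 and 3). Kti12, a regulator of Elongator, rose by 1.28, and Nop2, an rRNA cytosine methyltransferase, by 1.25. Of 26 tRNA maturation genes tested, 11 rose and 0 fell (median 0.43, with 3 genes below 0), among them the 3′ end nuclease Elac2 (1.22), the CCA-adding enzyme Trnt1 (0.997), Prorp, the nuclease of mitochondrial RNase P (1.171), and the RNase P subunit Rpp14 (0.71). Without soleus Myc replicates 3 and 4 the counts were 15 and 7. Of 19 genes that write, erase or read N6-methyladenosine in mRNA, 0 were called, with 2 higher and 0 lower at an unadjusted limma p under 0.05, a share near the 12.9% of all genes higher at that p, and a median of 0.060; 0 were called in any alternative. In quadriceps 0 genes of these 3 lists were called, and 12 of 59, 3 of 26 and 0 of 19 were higher and 0 lower at an unadjusted limma p under 0.05, against 3.97% of all genes higher.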

How the data were processed

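The authors deposited 1 table per muscle of normalised signal; from the values, each is an estimated number of reads scaled by a factor of its library. Per library, 90.9% to 93.4% of values below 300 reads came out whole (within 0.02 of a read) after dividing by the worth of 1 read. Among members called in soleus that share exon bases with another gene, Ctu2 and Nsun5 came out whole in 0 of the 7 soleus libraries. Pus3 did so in all 7. The cause was not tested. The aligner STAR 2.7.8a is listed in the submitters' processing notes beside DESeq2, Partek and the builds mm10 and mm39, without roles; the counter, annotation and strand setting are not given in the sources used here. Files carry no coordinates, and those printed are RefSeq's on GRCm38.p6. The protocol describes soleus only, so how quadriceps was taken is not known here.

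Groups came from the titles. Values were tested as log2(value + 1) with limma 3.58.1 in R 4.3.3 (trend and robust moderation, statmod 1.5.0), 2-sided, in each muscle alone, with Benjamini-Hochberg adjustment over all genes that reached 10 in at least 3 libraries of soleus, or 2 of quadriceps. All 48 members in soleus and all 47 in quadriceps passed that filter. The difference between muscles was a contrast in 1 fit over 11 libraries, treated as independent. The script was tested on simulated data. Replicates differed by more than sampling noise. Alternatives were other scalings, pseudocounts (0.5 and 5) and filters, no robust moderation, limma-voom on estimated reads, 1 fit over both muscles, a replicate block and leaving out libraries. Values after ± are SD.

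The members and the lists of other modification genes, tRNA maturation genes, mRNA N6-methyladenosine genes and cell type markers were chosen with earlier results of these data known. Values in every library are printed for members called in soleus with a log2 change of at least 1 and for up to 2 members of each role with the smallest soleus p; from the other lists up to 4 called genes with the smallest p are named. Other genes were named after their values were seen.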

Additional observations from a re-analysis of the deposited data

Results flagged for a closer look

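In soleus Myc libraries, 2 of the 48 sets of 4 values held a library far from the rest for the range of that set. Chance gives about 1 in 20, and 2 of 48 is no more than that share. Trmt6 in Myc replicate 1 had 291 against 316, 319 and 316 in the other Myc libraries, a gap of 0.884 of the range, with controls at 179, 160.1 and 142. Nsun6 in Myc replicate 3 had 32.2 against 60.4, 58.6 and 59.4, a gap of 0.953 of the range, with controls at 74.2, 48.5 and 57.5.

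Ftsj1, a methyltransferase of the anticodon loop whose human counterpart is mutated in intellectual disability, had log2 changes of opposite sign in the muscles. It was called in neither. The change was 0.45 in soleus (95% interval 0.088 to 0.81, limma adjusted p = 0.1245). In quadriceps the change was -0.15, with an interval that spans 0 (-0.60 to 0.29, limma adjusted p = 0.943). It had 263, 249.5, 213 and 215 in soleus Myc libraries and 175, 184 and 155 in soleus controls, all Myc values higher, and 253 and 241 in quadriceps Myc libraries and 291 and 259 in quadriceps controls, both Myc values lower. The log2 difference of 0.605 had a 95% interval of 0.078 to 1.13 (limma adjusted p = 0.999 over 11971 genes, unadjusted p = 0.0273), so it did not pass the test of the difference.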

How the results depend on the processing

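Members called in soleus numbered 15 to 18 with 1 library left out, 19 to 21 under the other scalings, pseudocounts, filters and tests, and 11 without both soleus Myc replicates 3 and 4, which also left 7 tRNA maturation genes. With 1 library left out, 17 to 23 other modification genes and 8 to 10 tRNA maturation genes were called in soleus. In quadriceps, 1 fit over all 11 libraries called 2 members and 3 other modification genes; with 1 library left out 0 to 1 members and 0 to 2 other modification genes were called, in fits where 1 group is a single library assumed to vary like the other group. No difference between muscles was called for a member in any alternative. The library numbers were not taken to pair Myc with control libraries: same-numbered libraries correlated at 0.00104, 0.0762 and 0.138 in soleus, where not every library correlated best with its own number, and at 0.144 in quadriceps, where 2 libraries a group give mirrored deviations. Pairing between the muscles was not examined. With the replicate block, 18 members were called in soleus and 0 in quadriceps, with 23 other modification genes and 10 tRNA maturation genes in soleus. Soleus Myc replicate 4 has no control of its number, so the block takes it out of the estimated change. The planned edgeR test was not run, because the values could not be turned back into whole reads.

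No member called in soleus changed direction in the 18 alternatives tried. Members not called changed sign as follows, each given as log2 change with 1 library left out. In soleus, Adat3 ranged from -0.015 to 0.94, Nsun6 from -0.35 to 0.0063, Trmt12 from -0.17 to 0.18, Trmt13 from -0.069 to 0.46 and Trmu from -0.078 to 0.19. In quadriceps, Adat2 ranged from -0.55 to 0.73, Dus4l from -0.014 to 0.63, Nsun4 from -0.19 to 0.077, Nsun6 from -0.84 to 0.0032, Trmt10b from -0.33 to 0.013, Trmt11 from -0.32 to 0.083, Trmt112 from -0.099 to 0.48, Trmt13 from -0.26 to 0.40, Trmt1l from -0.13 to 0.37 and Trmt44 from -0.28 to 0.13. Without soleus Myc replicates 3 and 4, Trmt1l was at 0.039, Trmt12 at -0.066, Trmu at -0.086, Nsun6 at 0.0070 and Adat2 at -0.33. Trmt12 was at -0.17 with the replicate block, Nsun4 in quadriceps at 0.0070 under column-total scaling and Adat2 in quadriceps at -0.016 under limma-voom. The cause was not tested. Low read numbers limit Trmt44, Trmt61b, Adat3 and Pus7l, which had under 20 estimated reads in some soleus library.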
